A study of Mus musculus with 18 samples.

Results

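The nuclear lamins and the LEM-domain proteins that bind them were followed by RNA-seq in differentiating mouse myoblasts with and without LAP2α. The 10 genes were chosen by symbol: the lamin genes *Lmna*, *Lmnb1* and *Lmnb2*, the LEM-domain genes *Tmpo*, *Emd*, *Lemd2*, *Lemd3* and *Ankle2*, and their partners *Banf1* and *Lbr*. All 10 were listed among the 19153 genes of the deposited tables, and all 10 were among the 17672 genes tested.

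The lamins are intermediate filament proteins that form the nuclear lamina, a meshwork under the inner nuclear membrane. *Lmna* encodes the A-type lamins A and C, and *Lmnb1* and *Lmnb2* encode the B-type lamins. LEM-domain proteins share a short fold that binds the small DNA-bridging protein BAF, the product of *Banf1*, and most of them sit in the inner nuclear membrane, where they tether chromatin to the lamina. LAP2α, an isoform from *Tmpo*, differs in that it has no membrane anchor and binds A-type lamins in the nuclear interior. Defects of emerin and of A-type lamins cause muscular dystrophies.

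The cells were immortalized myoblasts from a p53 knockout mouse. All groups therefore lack p53, including the controls. LAP2α knockout (KO) cells had been transfected with a plasmid carrying Cas9, EGFP and an sgRNA against the LAP2α-specific exon of *Tmpo*, and wildtype (WT) cells had received the same plasmid without an sgRNA. Both were sorted for EGFP as bulk populations and not as single clones, so the KO cells are a mixture of edited alleles. KO and WT cells were separately transfected and sorted. A KO/WT difference therefore cannot be told apart from another difference between these populations. Each genotype was sampled while proliferating (Prol), at confluence (D0), both in medium with 20% serum, and on day 2 of differentiation in 5% serum (D2), with 3 replicate libraries in each of the 6 groups. The labels do not say whether replicates were separate cultures, and p-values measure the spread between these libraries.

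The 18 libraries held 26437823 to 41619016 expected counts (median 32939620), and values are given in CPM, a gene's share of a library's counts scaled to be comparable between libraries. A count of 3, used as the detection floor, corresponds to 0.0651 to 0.119 CPM, far under every value given here for the 10 genes. Muscle identity was checked with 11 marker genes, whose summed level was 39.1 to 82.2 CPM in the 12 libraries of Prol and D0, 2868 to 5697 CPM in WT D2 and 1749 to 2169 CPM in KO D2. In WT Prol most of the sum was *Myf5* (mean 24.5 CPM), with *Des* at 3.44 and *Myod1* at 2.59 CPM. *Myf5* was at 17.6 CPM in WT D2, where *Myh3* (1374 CPM) and *Acta1* (1135 CPM) were highest. The sum in WT Prol thus rests largely on a marker that did not rise at D2, and is a weak check there. Of 9 markers of other cell types, 5 (*Ptprc*, *Adgre1*, *Cdh5*, *Adipoq* and *Epcam*) were not listed, and the summed level of the other 4 was 14.2 to 78.3 CPM at Prol and D0 and 118 to 302 CPM at D2, mostly from the fibro-adipogenic marker *Pdgfra*. *Dcn*, on the same list, rose from means near the floor at Prol (0.213 CPM in WT, 0.163 in KO) to 47.8 and 49.6 CPM at D2. The part of other cell types in the changes at D2 was not tested. In bulk samples, fewer cells of a type and less RNA per cell cannot be told apart.

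*Tmpo* is the gene targeted in the KO cells. In GENCODE M21 (GRCm38) it spans 91147571 to 91181315 of chromosome 10, minus strand, with 13 transcripts, of which 5 are coding. The LAP2α transcript Tmpo-201 has 4 exons and 2079 coding bases. Its last exon (91160417 to 91163361) has 2945 bases, and the other 4 coding transcripts, which have 1029 to 1356 coding bases, share 0 of them. Because the deposited values sum all transcripts of a gene, the level of *Tmpo* includes LAP2β and the other membrane-bound isoforms, and small insertions and deletions in that exon need not remove the RNA. The level of *Tmpo* therefore checks the knockout only in part. The paper itself checked it by sequencing across the cut site and by Western blots, in which LAP2α was depleted and LAP2β was unaffected.

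To set the genes side by side, CPM was divided by the kilobases (kb) of all annotated exons merged. In proliferating WT cells, *Banf1* was at 164 ± 20.6 CPM per kb and *Lmna* at 144 ± 23.5 (SD, n = 3), the most abundant of the 10. *Lmnb1* followed at 79.1 ± 10.3 CPM per kb, *Emd* at 32.8 ± 1.57, *Tmpo* at 27.3 ± 1.98 and *Lbr* at 21.5 ± 2.09 (SD, n = 3 each). *Ankle2*, *Lmnb2* and *Lemd2* lay close together at 12.97 ± 1.74, 12.1 ± 0.758 and 11.4 ± 0.696 CPM per kb, within their spread, and *Lemd3* was lowest at 3.75 ± 0.942. The merged exons include those of transcripts annotated as non-coding, and this lowers the value of *Tmpo* most. Per kb of the longest coding transcript, *Tmpo* came to 79.5 CPM, beside 82.4 for *Lmnb1*, 266 for *Lmna* and 194 for *Banf1*, so *Lmna* was then above *Banf1*. On that length *Lemd2* (21.2 CPM per kb) was also above *Lmnb2* (14.7) and *Ankle2* (13.7).

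**Figure D1:**
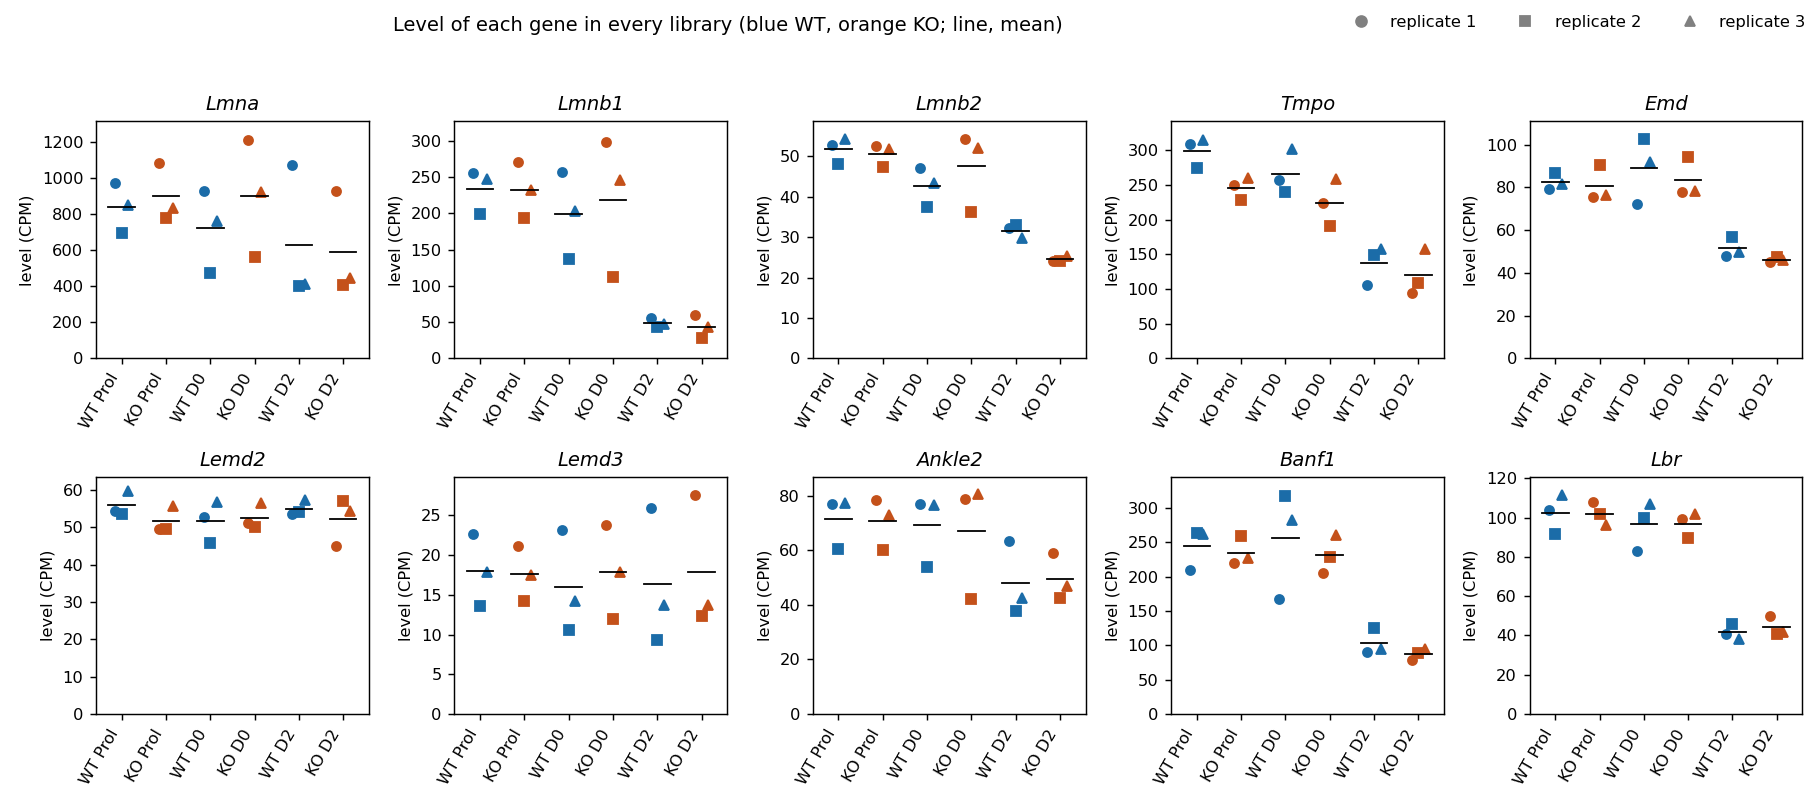
Level of each of the 10 genes in CPM (linear axis from 0) in the 18 libraries, by group; symbols give the replicate number, colours the genotype (blue WT, orange KO) and lines the group mean. *Lmnb1*, *Lmnb2*, *Tmpo*, *Emd*, *Banf1* and *Lbr* were lower in all 6 D2 libraries than in all 12 Prol and D0 libraries, whereas *Lmna*, *Lemd2*, *Lemd3* and *Ankle2* overlapped between states.

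From proliferation to day 2, most of the family fell. In WT cells 6 of the 10 genes were called lower (limma, adjusted p under 0.05 over all genes tested) and 0 were called higher. These were *Lmnb1*, *Lbr*, *Banf1*, *Tmpo*, *Lmnb2* and *Emd*. In the same comparison 14.1% of all genes tested were called lower. In KO cells the same 6 genes were called lower, beside 15.2% of all genes. With the replicate number added as a block, 8 of the 10 were called lower in KO cells, beside 23.9% of all genes (see *Lmna* below). Of the 6 genes, *Lmnb1* alone also had a log2 fold change over 1.5 in size, in either genotype. The median log2 fold change over the 10 genes was -0.70 in WT and -0.92 in KO cells, and over all genes tested it was -0.01 and 0.02.

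Among the lamins, *Lmnb1* (chromosome 18, plus strand) fell furthest. In WT cells it went from 255, 199 and 248 CPM in the Prol libraries (replicates 1, 2 and 3) to 56.2, 42.9 and 47.2 CPM at D2. In KO cells it went from 271, 194 and 232 CPM to 60.4, 28.5 and 43.2 CPM. The groups did not overlap in either genotype. The fall was 4.81-fold in WT cells (log2 fold change -2.27, SE 0.34, adjusted p = 0.000106) and 5.47-fold in KO cells (-2.45, SE 0.34, adjusted p = 5.14e-05). A lower log2 fold change than that of *Lmnb1* was seen for 2.17% of the genes tested in WT and 1.81% in KO cells.

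*Lmnb2* (chromosome 10, minus strand, 80901203 to 80918245) encodes the second B-type lamin and fell less. It was at 52.8, 48.1 and 54.3 CPM in the WT Prol libraries and at 32.2, 32.9 and 29.8 CPM at D2. In KO cells the Prol libraries were at 52.7, 47.4 and 51.7 CPM and the D2 libraries at 24.2, 24.1 and 25.3 CPM. D2 lay below Prol in every library of both genotypes. On the log2 scale the fold change was -0.71 in WT cells (SE 0.16, adjusted p = 0.00337) and -1.04 in KO cells (SE 0.16, adjusted p = 0.000145).

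*Lmna* (chromosome 3, minus strand, 88480147 to 88509956) varied more between replicates than between states. The WT Prol libraries were at 971, 697 and 848 CPM and the WT D2 libraries at 1068, 399.7 and 413 CPM, so replicate 1 was higher at D2 than at Prol and replicates 2 and 3 were lower. The KO Prol libraries were at 1082, 776 and 830.4 CPM and the KO D2 libraries at 925, 404 and 445 CPM, and all 3 pairs of the same replicate number were lower at D2. The groups overlapped in both genotypes, and neither change was called: the log2 fold change was -0.57 in WT (95% confidence interval -1.45 to 0.32, adjusted p = 0.34) and -0.69 in KO cells (-1.57 to 0.19, adjusted p = 0.232). In KO cells, where same-numbered libraries deviated together, adding the replicate number as a block made *Lmna* called lower (adjusted p = 0.0138). The block also made it called lower in WT cells (adjusted p = 0.0382), where replicate 3 libraries did not deviate together. With voom weights and the block as a random effect it was not called in WT cells (adjusted p = 0.0694). The blocked fit called 8 of the 10 genes lower in KO D2/Prol, the 6 above with *Lmna* and *Ankle2*, beside 23.9% of all genes.

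The ratio of lamin genes within a library does not depend on how libraries were scaled. Per kb of merged exons, *Lmna* was 1.74 to 2.03 times *Lmnb1* in the 6 Prol libraries and 1.76 to 2.54 times in the 6 D0 libraries. It was 4.44 to 9.65 times *Lmnb1* in the 6 D2 libraries, all above the Prol and D0 libraries. With the longest coding transcripts as lengths the ratios were higher, at 3.08 to 3.61 for Prol and 7.89 to 17.1 for D2. *Lmnb1* was 5.92 to 7.45 times *Lmnb2* at Prol and 1.71 to 3.62 times at D2, again without overlap. The ratio of *Lmna* to *Lmnb2* was 10.6 to 15.1 at Prol and 8.92 to 28.1 at D2, and these ranges overlapped.

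**Figure D2:**
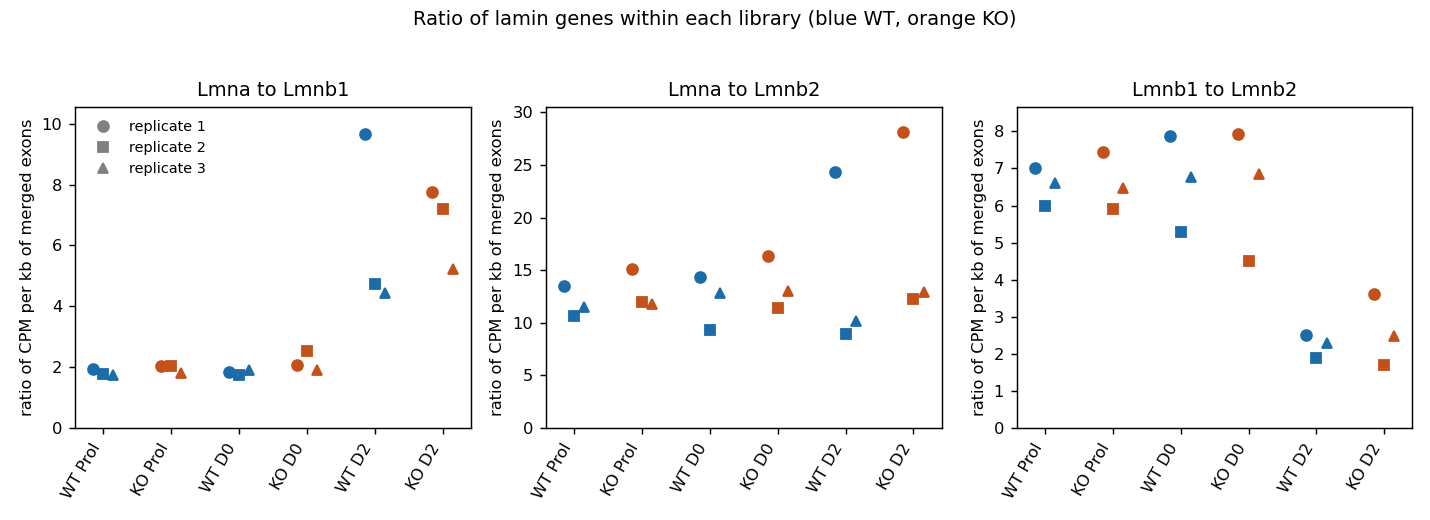
Ratio of the levels of lamin genes within each library, both in CPM per kb of merged exons (linear axes from 0), by group; symbols give the replicate number and colours the genotype. *Lmna* to *Lmnb1* was 1.74 to 2.03 at Prol and 4.44 to 9.65 at D2, while *Lmna* to *Lmnb2* overlapped between the states, with replicate 1 highest at D2.

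Of the LEM-domain genes, *Tmpo* and *Emd* fell. *Tmpo* went from 309.9, 275 and 315 CPM in WT Prol to 106, 149.5 and 157 CPM in WT D2, and from 250.3, 228 and 260.4 CPM in KO Prol to 94.5, 108 and 157 CPM in KO D2. Every D2 library was below every Prol library of either genotype. *Tmpo* thus had a log2 fold change of -1.14 in WT (SE 0.21, adjusted p = 0.000647) and -1.07 in KO cells (SE 0.21, adjusted p = 0.00103).

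*Emd* (chromosome X, plus strand, 74254687 to 74261548) encodes emerin, an inner nuclear membrane protein. It was at 79.0, 86.8 and 81.8 CPM in WT Prol and at 47.9, 56.9 and 49.8 CPM in WT D2. In KO cells it was at 75.5, 90.5 and 76.5 CPM at Prol and at 45.1, 47.5 and 46.0 CPM at D2. The groups did not overlap, with log2 fold changes of -0.68 in WT (SE 0.16, adjusted p = 0.00351) and -0.80 in KO cells (SE 0.16, adjusted p = 0.000993).

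*Ankle2* (chromosome 5, plus strand, 110231004 to 110256651) encodes a LEM-domain protein that acts on BAF as the nuclear envelope re-forms after mitosis. It was at 76.9, 60.5 and 77.5 CPM in WT Prol and 63.3, 37.9 and 42.7 CPM in WT D2, and at 78.5, 60.2 and 72.9 CPM in KO Prol and 58.9, 42.7 and 46.8 CPM in KO D2. D2 was lower in all 3 pairs of the same replicate number in each genotype, with overlap of the groups in WT but not in KO cells. The log2 fold change was -0.60 in WT (95% confidence interval -1.16 to -0.05, adjusted p = 0.0936) and -0.52 in KO cells (-1.07 to 0.04, adjusted p = 0.15). With the replicate block *Ankle2* was called lower in both genotypes (adjusted p = 0.00907 in KO and 0.00339 in WT cells). In WT cells the replicate 3 libraries did not deviate together. Without the block, *Ankle2* was called in WT cells when replicate 1 of WT D2 was left out (adjusted p = 0.0311).

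The other 2 LEM-domain genes, which encode integral proteins of the inner nuclear membrane, showed no called change. *Lemd2* (chromosome 17, minus strand, 27189600 to 27204469) was at 53.4 to 59.7 CPM in WT Prol and 53.5 to 57.4 CPM in WT D2, and at 49.5 to 55.7 CPM in KO Prol and 44.9 to 57.0 CPM in KO D2. Its log2 fold change was -0.02 in WT (95% confidence interval -0.32 to 0.28) and 0.01 in KO cells (-0.29 to 0.31). *Lemd3* (chromosome 10, minus strand, 120923413 to 120979332), also known as MAN1, was at 13.6 to 22.6 CPM in WT Prol and 9.31 to 25.9 CPM in WT D2, and at 14.2 to 21.1 CPM in KO Prol and 12.3 to 27.5 CPM in KO D2. Its log2 fold changes of -0.24 (95% confidence interval -1.10 to 0.61) and -0.06 (-0.91 to 0.80) were bounded less closely in this fit. In KO cells, where same-numbered libraries deviated together, the replicate block lowered the SE for *Lemd3* from 0.40 to 0.17. It was not called there either (limma, adjusted p = 0.804). The signs for *Lemd2* in WT cells and *Lemd3* in KO cells turned positive with library totals alone as scaling (0.14 and 0.074). That scaling moved the median of all genes for D2/Prol to 0.15 in WT cells, from -0.01, and to 0.16 in KO cells, from 0.02.

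Both partner genes fell. *Banf1* (chromosome 19, minus strand, 5364638 to 5367168), which encodes BAF, was at 209.6, 264 and 262 CPM in WT Prol and 90.9, 126 and 94.3 CPM in WT D2. In KO cells it was at 220.1, 259 and 226 CPM at Prol and 78.2, 89.0 and 95.2 CPM at D2. *Banf1* had a log2 fold change of -1.25 in WT (SE 0.22, adjusted p = 0.000489) and -1.43 in KO cells (SE 0.22, adjusted p = 0.000152).

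*Lbr* (chromosome 1, minus strand, 181815335 to 181843046) encodes the lamin B receptor, a membrane protein that binds B-type lamins and heterochromatin and has sterol reductase activity. It was at 103.9, 91.7 and 111 CPM in WT Prol and 40.7, 46.0 and 38.3 CPM in WT D2, and at 108, 102 and 96.0 CPM in KO Prol and 50.2, 40.6 and 41.6 CPM in KO D2. For both partner genes every D2 library was below every Prol library. The log2 fold change of *Lbr* was -1.29 in WT (SE 0.15, adjusted p = 1.06e-05) and -1.21 in KO cells (SE 0.15, adjusted p = 2.03e-05).

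**Figure D3:**
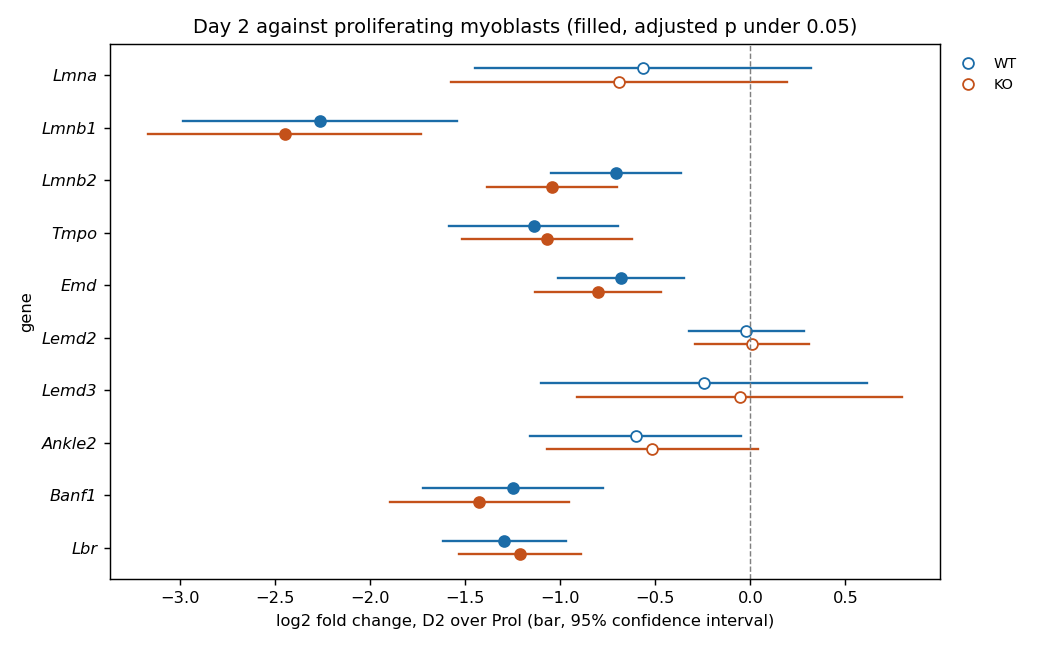
Log2 fold change of each gene at D2 over Prol (horizontal axis) in WT (blue) and KO (orange) cells, with the 95% confidence interval of the limma fit as a bar; filled points have an adjusted p under 0.05 over all 17672 genes tested. In this fit without the replicate block, the 6 genes with filled points are the same in both genotypes, with values from -0.68 to -2.45.

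Because 6 of the 10 genes fell together, the promoters of the family were searched for 3 sequence motifs known from cell cycle genes. They were the E2F motif (TTTCCCGC, TTTGGCGC, TTTCGCGC or TTTGCCGC), the CHR motif (TTTGAA) and the CCAAT box (CCAAT), on both strands, from 250 bases before to 50 bases after each RefSeq transcription start on GRCm38.p6. No motif contains another. Windows of 8 of the 10 genes were used, 12 in all, and *Lmnb1* and *Lemd2* were not analysed here. The E2F motif was in a window of 2 genes (*Tmpo* and *Banf1*), the CHR motif in a window of 2 genes (*Tmpo* and *Lbr*), and the CCAAT box in a window of 6 genes (*Tmpo*, *Lmna*, *Lbr*, *Emd*, *Banf1* and *Lemd3*). *Tmpo*, *Lmna*, *Lmnb2* and *Banf1* had 2 windows each. No gene held the same motif in both, so these counts are also counts of windows, out of 12. Of all 32851 windows of this length, 2.26% held the E2F motif, 17.9% the CHR motif and 37.4% the CCAAT box. These shares are per window and not per gene. Neither window of *Lmnb2* nor that of *Ankle2* held any of these letters. A match describes the letters and is not a measured binding site. The 4 stretches shown are those before the starts of the called genes that held an E2F or CHR motif or a pair of CCAAT boxes. They are written 5′ to 3′ on the minus strand, which carries all 3 genes, and capitals mark the motifs, with TTCAAA the CHR motif read on the other strand.
Tmpo, upstream start, chr10:91171620-91171719: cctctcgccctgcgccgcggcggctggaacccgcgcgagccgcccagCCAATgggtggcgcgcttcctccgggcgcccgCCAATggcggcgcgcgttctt
Tmpo, downstream start, chr10:91170551-91170750: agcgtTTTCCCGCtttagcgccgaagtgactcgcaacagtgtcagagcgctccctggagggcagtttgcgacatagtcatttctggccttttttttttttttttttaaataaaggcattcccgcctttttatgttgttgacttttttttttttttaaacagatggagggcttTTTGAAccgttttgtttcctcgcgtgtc
Lbr, chr1:181842402-181842501: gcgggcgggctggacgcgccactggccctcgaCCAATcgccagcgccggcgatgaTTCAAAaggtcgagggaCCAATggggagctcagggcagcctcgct
Banf1, chr19:5366877-5367076: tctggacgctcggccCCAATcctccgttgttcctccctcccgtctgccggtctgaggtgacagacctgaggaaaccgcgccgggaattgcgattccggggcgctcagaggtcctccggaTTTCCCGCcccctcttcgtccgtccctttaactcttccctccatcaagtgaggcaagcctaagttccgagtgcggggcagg

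The upstream start of *Tmpo* thus had CCAAT boxes beginning at positions -53 and -21, counted from the start, and the downstream start an E2F motif at -195 and a CHR motif at -28. *Lbr* had CCAAT boxes at -68 and -28 on either side of a CHR motif at -45, and *Banf1* an E2F motif at -81.

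The fall at D2 was also present against confluent cells, which were still in the medium with more serum. In D2/D0, 5 of the 10 genes were called lower in WT cells (*Lmnb1*, *Banf1*, *Lbr*, *Tmpo* and *Emd*), beside 11.3% of all genes, and 6 in KO cells (these and *Lmnb2*), beside 12.9%. The log2 fold change of *Lmnb1* was -1.99 in WT (SE 0.34, adjusted p = 0.00042) and -2.26 in KO cells (SE 0.34, adjusted p = 0.000135). For *Lmnb2* it was -0.43 in WT (SE 0.16, adjusted p = 0.0642) and -0.93 in KO cells (SE 0.16, adjusted p = 0.000464). Without replicate 2 of WT D0, *Lmnb2* was called in WT cells (adjusted p = 0.04998). With the replicate block, *Lmna* (adjusted p = 0.0223) and *Ankle2* (adjusted p = 0.041) were also called lower in KO D2/D0, where 22.4% of all genes were. With voom weights and the block as a random effect *Ankle2* was not called there (adjusted p = 0.0627). Without the block, *Ankle2* was called in KO D2/D0 when replicate 2 of KO D0 was left out (adjusted p = 0.0409). In WT D2/D0 the block called *Lmnb2* (adjusted p = 0.0129) and *Ankle2* (adjusted p = 0.00788) lower, but the replicate 3 libraries did not deviate together.

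Between proliferation and confluence no gene of the family was called. In WT D0/Prol 0 of the 10 genes had an adjusted p under 0.05 in limma, beside 0.00566% of all genes (1 gene). In KO D0/Prol and in the mean of both genotypes the counts were 0 of 10, beside 0% of all genes. Voom weights and the replicate block likewise called 0 of the 10. At an unadjusted p under 0.05 without the block there were also 0 of the 10 in each of these comparisons. In the mean of both genotypes this was beside 3.1% of all genes. The log2 fold changes in that mean ran from -0.23 to 0.07, with a median of -0.10 beside -0.03 over all genes. The nearest to a change was *Lmnb2* in WT cells, at 52.8, 48.1 and 54.3 CPM in Prol and 47.2, 37.4 and 43.3 CPM in D0, without overlap (log2 fold change -0.28, SE 0.16, adjusted p = 1). With the replicate block in limma, the unadjusted p of *Lmnb2* was 0.0399 in WT cells (adjusted p = 0.721). In the mean of both genotypes it was 0.0425 (adjusted p = 0.42).

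The second question was whether KO and WT cells differed in the RNA of the targeted gene or of the other lamina genes. No gene of the family was called in KO/WT in any state. The targeted gene *Tmpo* is given first. KO/WT for *Tmpo* was -0.28 on the log2 scale at Prol, -0.25 at D0 and -0.21 at D2 (SE 0.21 each). At Prol each KO library lay below each WT library, whereas the genotypes overlapped at D0 (223.6, 191 and 259 CPM in KO against 257, 239 and 302 CPM in WT) and at D2. In all 9 pairs of the same state and replicate number KO was below WT, which held for 0.543% of all genes tested. The pair of D2 replicate 3 was close to a tie, at 157.24 CPM in KO and 157.37 CPM in WT. On the log2 scale the D2 pairs differed by -0.17, -0.47 and -0.0012. The mean over the states was -0.25 (95% confidence interval -0.51 to 0.01, adjusted p = 1). With the replicate block its unadjusted p was 0.0107 and its adjusted p 0.685. The KO effect on *Tmpo* differed by 0.07 between D2 and Prol (95% confidence interval -0.56 to 0.70).

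In KO/WT Prol 0 of the 10 genes were called, beside 0.00566% of all genes, and 0 had an unadjusted p under 0.05, beside 1.11% of all genes. In KO/WT D0 the counts were again 0 of 10 by either threshold, beside 0% and 1.47% of all genes. In KO/WT D2 0 of 10 were called, beside 0% of all genes, and 1 (*Lmnb2*) had an unadjusted p under 0.05, beside 1.96%. In the mean of the states, without the block, the counts were 0 of 10 by either threshold, beside 0.00566% and 2.3% of all genes. For the change of the KO effect from Prol to D2 they were 0 of 10, beside 0% and 0.945%. Voom weights and the replicate block called 0 of the 10 in each of these comparisons.

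*Lmnb2* at D2 was at 24.5 ± 0.672 CPM in KO and 31.6 ± 1.64 CPM in WT cells (SD, n = 3 each). None of the KO libraries reached the lowest WT library. KO/WT was -0.37 on the log2 scale (95% confidence interval -0.71 to -0.02, unadjusted p = 0.0374 in limma, adjusted p = 1), and with the replicate block the unadjusted p was 0.0107 and the adjusted p 0.795. The KO effect on *Lmnb2* differed by -0.33 between D2 and Prol (95% confidence interval -0.82 to 0.15), so a difference between the states was not shown. *Emd* was the other gene whose D2 libraries did not overlap, with 45.1 to 47.5 CPM in KO and 47.9 to 56.9 CPM in WT cells (log2 fold change -0.15, SE 0.16, adjusted p = 1). All 3 KO libraries were below all 3 WT libraries for 2 of the 10 genes at D2, beside 3.81% of all genes, and for 1 of the 10 (*Tmpo*) at Prol, beside 2.56%. Other genes also had lower values in KO at D2. The KO/WT D2 log2 fold change was below 0 for 10 of the 11 muscle markers (median -0.91) and 17 of the 20 proliferation genes (median -0.21), beside a median of -0.01 over all genes. In limma 0 of either list were called, also with voom weights and the block, with 2 muscle markers and 0 proliferation genes at an unadjusted p under 0.05. Their part in the values of *Lmnb2* and *Emd* was not tested.

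For *Lmna*, which encodes the lamins that LAP2α binds, KO/WT was 0.09 at Prol (95% confidence interval -0.79 to 0.98), 0.31 at D0 (-0.58 to 1.19) and -0.03 at D2 (-0.91 to 0.85) on the log2 scale. These intervals, from the fit without the replicate block (SE 0.42), reach to about 1.5-fold or beyond in either direction. Leaving out 1 library moved the value from -0.05 to 0.21 at Prol, 0.031 to 0.61 at D0 and -0.40 to 0.44 at D2. With the block the SE was 0.21 in each state. The unadjusted p in that limma fit was 0.666 at Prol, 0.17 at D0 and 0.892 at D2. Same-numbered pairs at D2 differed by -0.21, 0.01 and 0.11. *Lbr* and *Lemd2* had narrower intervals in the fit without the block. For *Lbr* they ran from -0.33 to 0.32 at Prol and from -0.24 to 0.40 at D2, and for *Lemd2* from -0.41 to 0.19 and from -0.38 to 0.22. Comparisons of KO with WT share the libraries of the D2/Prol comparisons.

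**Figure D4:**
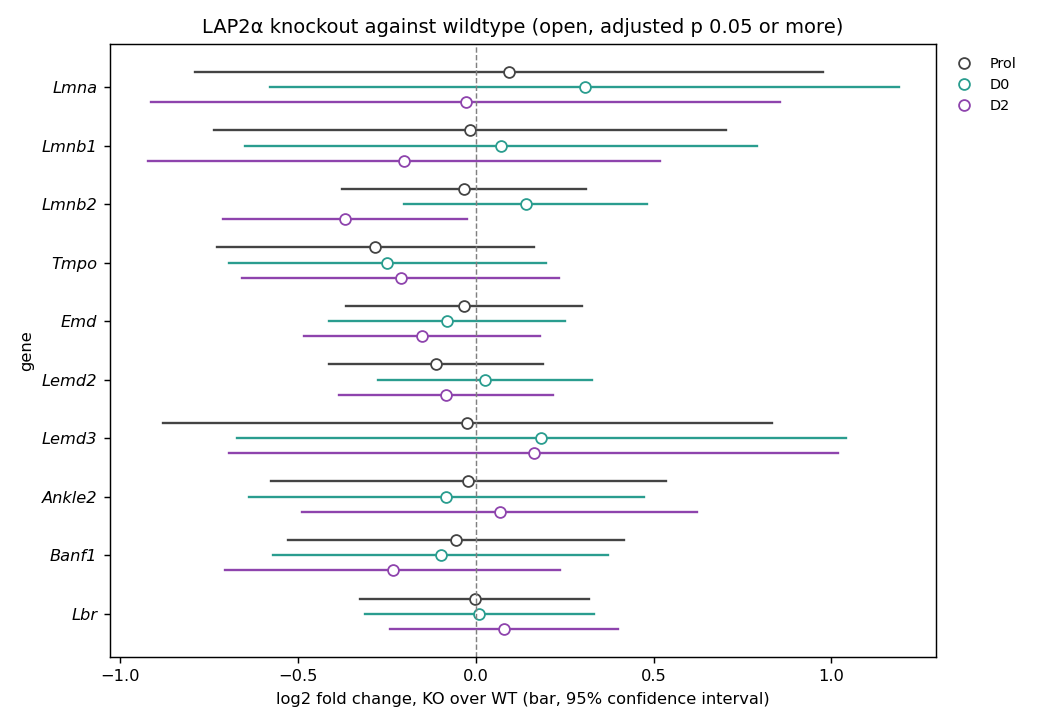
Log2 fold change of each gene in KO over WT cells (horizontal axis) at Prol, D0 and D2, with the 95% confidence interval of the limma fit as a bar; open points have an adjusted p of 0.05 or more. All 30 points are open, the 3 values of *Tmpo* lie between -0.28 and -0.21, and the interval of *Lmnb2* at D2 (-0.71 to -0.02) is the only one that does not include 0.

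Replicate libraries of the same number resembled each other for several of the genes, with no cause tested. *Lmna*, *Lmnb1* and *Lemd3* each had replicate 1 highest and replicate 2 lowest in 6 of the 6 groups, and *Ankle2* in 4 of 6. This order held in at least 5 of 6 groups for 3 of the 10 genes and for 10.6% of all genes tested. *Emd* had the opposite order, with replicate 2 highest and replicate 1 lowest, in 6 of 6 groups and *Banf1* in 4 of 6. That order held in at least 5 of 6 groups for 10.1% of all genes. The highest library of a group was up to 2.67 times the lowest for *Lmna*, 2.65 times for *Lmnb1* and 2.78 times for *Lemd3*, but at most 1.29 times for *Lbr* and 1.27 times for *Lemd2*. *Pdgfra* was also highest in replicate 1 in all 3 WT groups, for example in WT D0 (57.0 CPM, against 15.1 and 17.6), and in KO Prol and KO D0 (77.2 CPM, against 27.9 and 13.1, in KO D0). In KO D2 replicates 1 and 2 were at 240.6 and 241 CPM and replicate 3 at 81.6 CPM. The summed muscle markers at WT D2 were 5697, 3111 and 2868 CPM in replicates 1, 2 and 3. Their part in the order of the replicates was not tested. The pattern was noticed after the values were seen.

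Other genes of the nuclear envelope and of lamin maturation were read from lists. Of 5 genes that process the C-terminal end of lamins (*Fnta*, *Fntb*, *Rce1*, *Zmpste24* and *Icmt*), 1 was called lower at D2 in each genotype and 0 higher, beside 14.1% of all genes lower and 16.6% higher in WT and 15.2% and 17.1% in KO cells. A count of 1 in 5 is near that background. This was *Rce1*, a protease that trims the farnesylated end, which was at 28.4 ± 2.33 CPM in WT Prol and 19.7 ± 0.97 CPM in WT D2 (SD, n = 3 each, log2 fold change -0.53, adjusted p = 0.0223), and -0.52 in KO cells (adjusted p = 0.0223). With library totals alone as scaling, with only the groups compared in the fit, and without WT Prol replicate 2, WT Prol replicate 3, WT D2 replicate 3, KO Prol replicate 2 or KO D2 replicate 3, *Rce1* was not called (largest adjusted p = 0.12 in WT and 0.106 in KO cells). With the replicate block 2 of the 5 genes were called in KO cells, beside 23.9% of all genes lower in that fit. *Fntb*, a farnesyltransferase subunit, had the lowest values of the list (-0.73 and -0.66) and *Fnta*, the other subunit, the highest (-0.05 and -0.11). Neither was called.

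Of 18 further envelope genes and lamina partners, 17 were listed. In WT cells 8 were called lower and 1 higher at D2, beside 14.1% of all genes lower and 16.6% higher. In KO cells 9 were called lower and 1 higher, beside 15.2% and 17.1% of all genes. The medians of the list were -0.70 in WT and -0.89 in KO cells. Both kinases that phosphorylate BAF fell, *Vrk1* by 1.92 and 2.09 and *Vrk2* by 1.46 and 1.71 on the log2 scale in WT and KO cells. Of the HP1 proteins, which bind methylated histone H3 and partner *Lbr*, *Cbx1* (-0.94 and -0.99) and *Cbx3* (-1.13 and -1.17) fell in both genotypes, and *Cbx5* in KO cells (-0.95, adjusted p = 0.00937), with -0.67 and an adjusted p of 0.0555 in WT cells. The membrane proteins *Nrm* (-1.77 and -1.79), *Nemp1* (-1.54 and -1.54) and *Tmem201* (-0.77 and -0.89) also fell. The LEM-domain endonuclease *Ankle1* had the lowest values of the list (-2.57 and -2.87), from 27.1 to 29.8 CPM in WT Prol to 1.23 to 9.94 CPM in WT D2. *Lemd1* was called higher, but at a low level, from 0.0402 to 0.336 CPM in WT Prol to 0.342 to 0.858 CPM in WT D2 (adjusted p = 0.0465), with some libraries at or under 3 counts, and lost its call in 6 of 14 alternatives in WT and 8 of 14 in KO cells.

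All 20 genes of a proliferation list, among them *Mki67*, *Top2a* and the MCM helicase subunits, were called lower at D2 in both genotypes. Their log2 fold changes ran from -3.06 to -1.13 in WT cells (median -2.50) and from -3.39 to -1.26 in KO cells (median -2.61). The fall of *Lmnb1* lay inside this range, with 13 of the 20 genes falling further in WT and 12 in KO cells. *Tmpo* and *Lbr* fell less than 19 of the 20 in WT cells and less than all 20 in KO cells. The share of the fall that goes with fewer dividing cells was not tested.

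**Figure D5:**
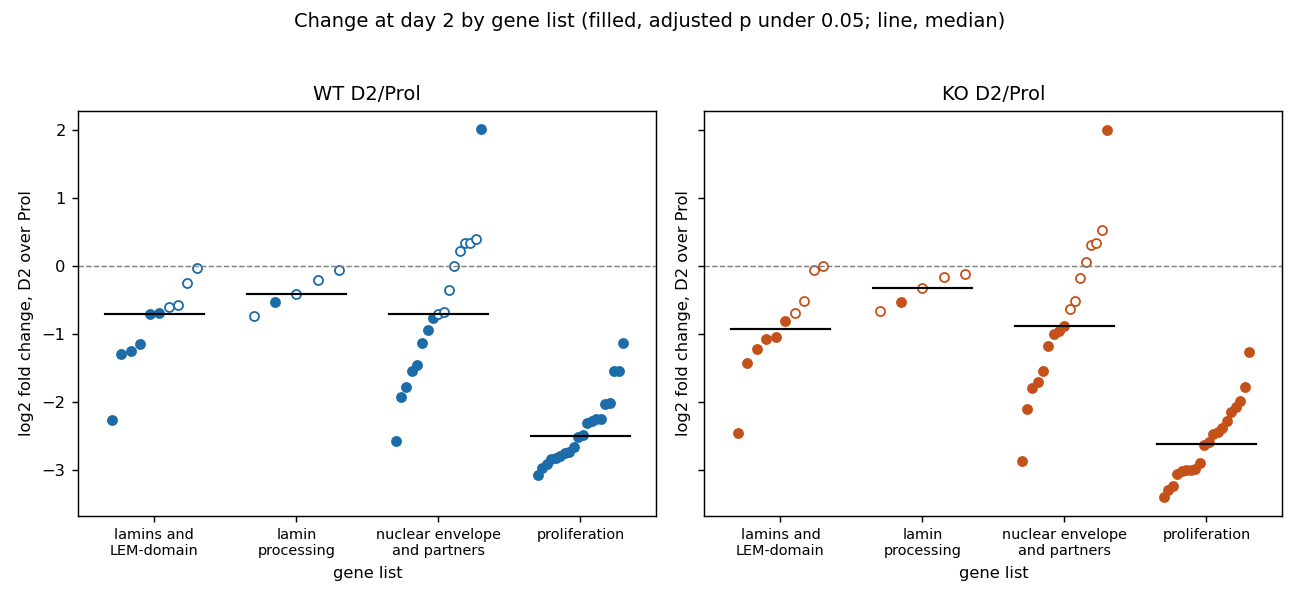
Log2 fold change at D2 over Prol (vertical axis) of the genes of each list in WT (left) and KO (right) cells; each point is a gene, filled where the adjusted p is under 0.05, and lines mark the list median. The 10 lamina genes span -2.27 to -0.02 in WT cells, all 20 proliferation genes lie at -1.13 or lower, and 1 of 5 lamin processing genes is filled.

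The genes with the most similar pattern were sought by the root mean square difference of the 6 group means on the log2 scale, each gene centred on its own mean, among 9466 other genes with at least 10 CPM on average. Nearest to *Lmnb1* were *Cit*, *Nasp* and *Spdl1*, with differences of 0.03 each. Nearest to *Lmna* were *Cdyl*, *Naa40* and *Carhsp1* (0.04 each), and nearest to *Tmpo* were *Cbx3-ps6* (0.05), *Rab6b* (0.05) and *Gon7* (0.07). *Cbx3-ps6* is annotated as a pseudogene, which can share reads with *Cbx3*, and its value is uncertain. Among the 10 genes themselves, *Lemd2* and *Lemd3* were closest (0.11), followed by *Lbr* and *Banf1* (0.12) and by *Lmna* and *Ankle2* (0.12), and *Lmnb1* and *Lemd2* were farthest apart (1.07).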

How the data were processed

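RNA-seq was performed by the authors on polyadenylated RNA with a strand-specific kit. Per the methods of the study, reads were trimmed with cutadapt and aligned with NextGenMap to the GRCm38 transcriptome, expected counts were estimated with RSEM and summed to genes, and TMM factors and limma-voom were applied. The deposited values are CPM: expected counts plus 0.5 over each library's TMM-scaled total. The 18 implied factors (0.909 to 1.18) multiply to 1. Of the recovered counts under 20, 34.9% to 47.2% were whole within 0.001, so they are expected counts and no count test was run.

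The 17672 genes that exceeded 5 expected counts in every library of at least 1 group were fitted with limma 3.58.1 in R 4.3.3 on log2 CPM, with a variance trend and 1 factor of 6 groups. Adjusted p-values are Benjamini-Hochberg over all genes tested. The fit was tested on simulated data in which libraries varied independently and genes were changed only in KO D2. Deviations shared by libraries of the same replicate number were not simulated, so that test does not cover them. Symbols matched 19072 of 19153 genes. Positions are from GENCODE M21 and promoters from RefSeq. Figures were drawn with matplotlib 3.10.9. The study blocked on a sequencing lane, which the labels do not give. Same-numbered libraries deviated together: the correlation of deviations across genes was over 0.1 in 40 of 45 pairs, and in 10 of 90 pairs of different number. WT D2/Prol (0.0393 for replicate 3) and WT D2/D0 (0.01) did not exceed 0.1 for every replicate, which was the rule for pairing. Blocked values for these comparisons are given with that limit. Alternatives were voom weights, other scalings, filters and samples, a pseudocount of 1, an unadjusted p under 0.05 with over 1.5-fold and at least 10 CPM in a library, and each library left out. The methods of the study state that limit as a log2 fold change over 1.5, which was added as an alternative after the values were seen.

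The members, lists and tests were chosen with earlier results of these data known. Named are all 10 members, list genes that were called or at the ends of a range, and the 3 nearest patterns for *Tmpo*, *Lmna* and *Lmnb1*.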

Additional observations from a re-analysis of the deposited data

Results flagged for a closer look

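The values of *Lemd2* at D0 against Prol had opposite signs in WT and KO cells, and neither passed the test. It was lower at D0 in all 3 pairs of WT libraries of the same replicate number (log2 fold change -0.11, adjusted p = 1) and higher in all 3 pairs of KO libraries (0.025, adjusted p = 1), in the limma fit. The KO value turned negative in 3 of 6 fits that left out 1 library. The difference between the genotypes was not tested, and the groups overlapped in both.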

How the results depend on the processing

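Of 120 fold changes (10 genes in 12 comparisons), 23 were called, and none of these 23 changed sign in any alternative. None lost its call in 138 fits that left out 1 library. Where called genes numbered 6 in D2/Prol, alternatives gave 6 to 8, apart from an unadjusted p with a log2 fold change over 1.5. That rule, which sets a higher limit on size, left 1 gene (*Lmnb1*) in D2/Prol and in D2/D0 of each genotype. In WT D2/D0 the count was 5, and 3 in a fit of only the groups compared, where *Tmpo* (adjusted p = 0.0535) and *Emd* (0.0746) were not called. In KO D2/D0 *Tmpo* was not called in that fit either (0.0518). With the replicate block, *Lmna* (adjusted p = 0.0382) and *Ankle2* (0.00339) were also called in WT D2/Prol, and *Lmnb2* (0.0129) and *Ankle2* (0.00788) in WT D2/D0, where the replicate numbers did not meet the rule for pairing. With voom weights and the block as a random effect, *Lmna* was not called in WT D2/Prol (0.0694). Beyond these and the calls of *Lmna* and *Ankle2* in KO cells given above, the block changed no call among the 10 genes. It raised the calls over all genes from 5424 to 8431 in WT D2/Prol, from 5706 to 8580 in KO D2/Prol, from 4590 to 7642 in WT D2/D0 and from 4997 to 8126 in KO D2/D0.

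Signs reversed only for values that were not called, 57 of them in 136 of 2030 fits, with log2 fold changes of at most 0.26 in size. With 1 library left out, D2/Prol ran from -0.0527 to 0.0281 for *Lemd2* and -0.64 to 0.10 for *Lemd3* in WT, and from -0.059 to 0.11 and -0.42 to 0.16 in KO cells. *Lemd2* in KO D0/Prol ran from -0.028 to 0.082, and the KO effect on *Tmpo* at D2 less that at Prol from -0.14 to 0.23. For *Lmna*, KO/WT ran from -0.050 to 0.21 at Prol and -0.40 to 0.44 at D2. With library totals alone, *Lemd2* in WT D2/Prol was 0.14 and *Lemd3* in KO D2/Prol 0.074. For D2/Prol, the 20 proliferation genes were called in every alternative, and of the called lamin processing and envelope genes *Rce1* and *Lemd1* lost a call in some (these alternatives were added after the values were seen). The marker lists were not rerun in full. With only the groups compared, the mean KO/WT, which uses all groups, gave no separate fit.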
